A study of Mus musculus with 6 samples.

Results

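Growth hormone and the insulin-like growth factors form a hormone relay. Growth hormone, made by somatotrophs of the anterior pituitary, binds its receptor on liver and other tissues and induces insulin-like growth factor 1, which acts through a receptor tyrosine kinase closely related to the insulin receptor. Both receptors pass their signal to insulin receptor substrate proteins and on to the PI3K, AKT and mTOR pathway. In the brain, insulin-like growth factors are made locally as well, by neurons, glia, the meninges and the choroid plexus, and the axis is known for its part in growth and in the lifespan of mice.

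The members described here were 10 genes of this axis, out of 38355 genes listed in the count tables: the pituitary hormones Gh and Prl, the receptor Ghr, the ligands Igf1 and Igf2, the receptors Igf1r and Insr, the adaptors Irs1 and Irs2, and the binding protein Igfbp2. They were taken by gene name and selected on the counts at both ages, which were already known from this contrast. The difference of a member between the ages is therefore given as a description, without a test. Whole cortical hemispheres of C57BL/6 mice, an inbred wild-type strain that carried no further allele and had no treatment, were sequenced as polyadenylated RNA at 6 months (3 samples) and 16 months (3 samples). The study gives each sample as a separate brain, and its methods for sorted cells state that the sequenced mice were males. The housing text of the labels names 3 months for the younger mice, where every other label gives 6 months.

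Total counts on genes lay between 29797253 and 46519280 per sample, so that 3 counts, taken here as the floor of detection, corresponded to between 0.0645 and 0.101 counts per 1000000 (CPM). The 10 markers of cortical excitatory neurons summed to between 1602 and 1696 CPM at 6 months and between 1629 and 1928 CPM at 16 months, and so were detected in every sample. Other marker lists moved with age: the summed level of 10 thalamic markers was 113 to 118 CPM at 6 months and 146 to 155 CPM at 16 months, and that of 10 dentate gyrus markers was 379 to 385 CPM and 439 to 458 CPM. Both ranges lay apart between the ages, and the part of the dissection in the results given here was not tested. At 16 months, samples also differed in how their counts depended on the GC content of genes: the deviation from the mean of the age correlated with GC content with r = 0.588 across genes in replicate 1 and r = -0.582 in replicate 2, against values from -0.13 to 0.16 in the other samples. In tissue of mixed cells, fewer cells of a type and less RNA per cell cannot be told apart.

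Of the 10 members, 9 passed the filter on low counts, and Gh and Igf2 were the 2 called at an adjusted p under 0.05 (quasi-likelihood test of edgeR, Benjamini-Hochberg values over all tested genes). The same threshold called 286 of 17120 tested genes (1.67%), with 134 above (0.783%) and 152 below (0.888%) their 6 month level in the older mice. Since the contrast was known when the members were chosen, nothing is read from this count. The median log2 difference, 16 minus 6 months, was 0.0067 over the 9 members that passed and 0.019 over all 10 with Prl at its lower bound, beside 0.0014 over all tested genes. Gh passed the filter only through the 16 month samples, and Prl failed it.

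Gh encodes growth hormone, and its gene lies at chr11:106300271-106301865 on the minus strand (GRCm38, as for all positions here). The 6 month samples held 10, 5 and 7 counts of Gh, and the 16 month samples held 27, 27 and 37. Every 16 month sample was above every 6 month sample. On the scale of CPM these counts were 0.182 ± 0.0269 (SD, n = 3) at 6 months and 0.920 ± 0.144 (SD, n = 3) at 16 months, a log2 difference of 2.30 with a standard error of 0.27. The 95% interval of the difference ran from 1.71 to 2.89. The highest count, 37, was 37 of the 34399669 counts on genes in its sample. Whichever sample was left out, the log2 difference stayed between 2.16 and 2.44.

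Prl encodes prolactin, the pituitary hormone of lactation and a relative of growth hormone (chr13:27057570-27065205, plus strand). Its counts were 0, 0 and 1 at 6 months and 24, 8 and 28 at 16 months. All 6 month samples were at or under the floor of 3 counts, and all 16 month samples were above it, with replicate 2 well below the other two. The mean of 0.600 CPM at 16 months was at least 7.64-fold higher than the floor of 3 counts per library at 6 months, which averaged 0.0785 CPM. Within the 16 month samples the ratio of Prl to Gh counts was 0.889, 0.296 and 0.757. Whether these ratios differ beyond counting error was not tested.

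The sequence before the start of Prl is shown because both pituitary hormones were higher at 16 months and because their pituitary expression is known to depend on the factor Pit-1, encoded by Pou1f1. It covers the 250 bases before the annotated start, chr13:27057320-27057569 on the plus strand (RefSeq, GRCm38.p6). Capitals mark each match, on either strand, to the Pit-1 core ATGNATA.

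Prl upstream: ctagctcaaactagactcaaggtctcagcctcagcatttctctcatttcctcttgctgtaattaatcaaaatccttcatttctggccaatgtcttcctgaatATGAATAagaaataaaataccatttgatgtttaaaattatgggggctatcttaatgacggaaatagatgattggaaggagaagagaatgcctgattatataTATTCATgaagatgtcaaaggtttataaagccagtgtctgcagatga

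The 2 cores, which did not overlap, began 148 and 47 bases before the start. The same core was found in 7.92% of 32851 upstream windows of this length, and in none of the other 12 windows of the 8 members that had one. The STAT5 motif TTCNNNGAA, searched on both strands, was found in 7.02% of all windows and in none of the 13 windows of the members. Gh and Insr had no window in the table used. These matches describe letters and show no binding.

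Genes that mark the pituitary were mostly too low to compare with Gh and Prl as a group, since 4 of 13 passed the filter. Of 13 anterior pituitary genes found in the tables, 6 were at or under 3 counts in all samples, and Six6, a transcription factor of the developing pituitary, was at 0 throughout. Cga, the common subunit of the glycoprotein hormones, had 1, 1 and 0 counts at 6 months and 0, 1 and 0 at 16 months. Tshb, the subunit particular to thyrotropin, had 5, 6 and 18 counts at 6 months and 3, 8 and 8 at 16 months, and Pomc, the corticotropin precursor, had 47, 18 and 30 counts and then 31, 28 and 30. The ages overlapped for each of these hormones. The summed level of the list was 379 to 399 CPM at 6 months and 429 to 452 CPM at 16 months, and it came almost wholly from the granins Chga and Scg2, which neurons also express. By edgeR's quasi-likelihood test, Chga had a log2 difference of 0.18 (adjusted p = 0.189) and Scg2 one of 0.19 (adjusted p = 0.148). Of the 4 tested genes of the list, 3 had a positive and 1 a negative log2 difference, in a range from -0.26 to 0.19. Among these 4, 2 were higher and 1 lower in all 16 month samples, beside 23.7% of all tested genes whose ages did not overlap. The part of pituitary tissue in the counts of Gh and Prl was not tested.

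**Figure D1:**
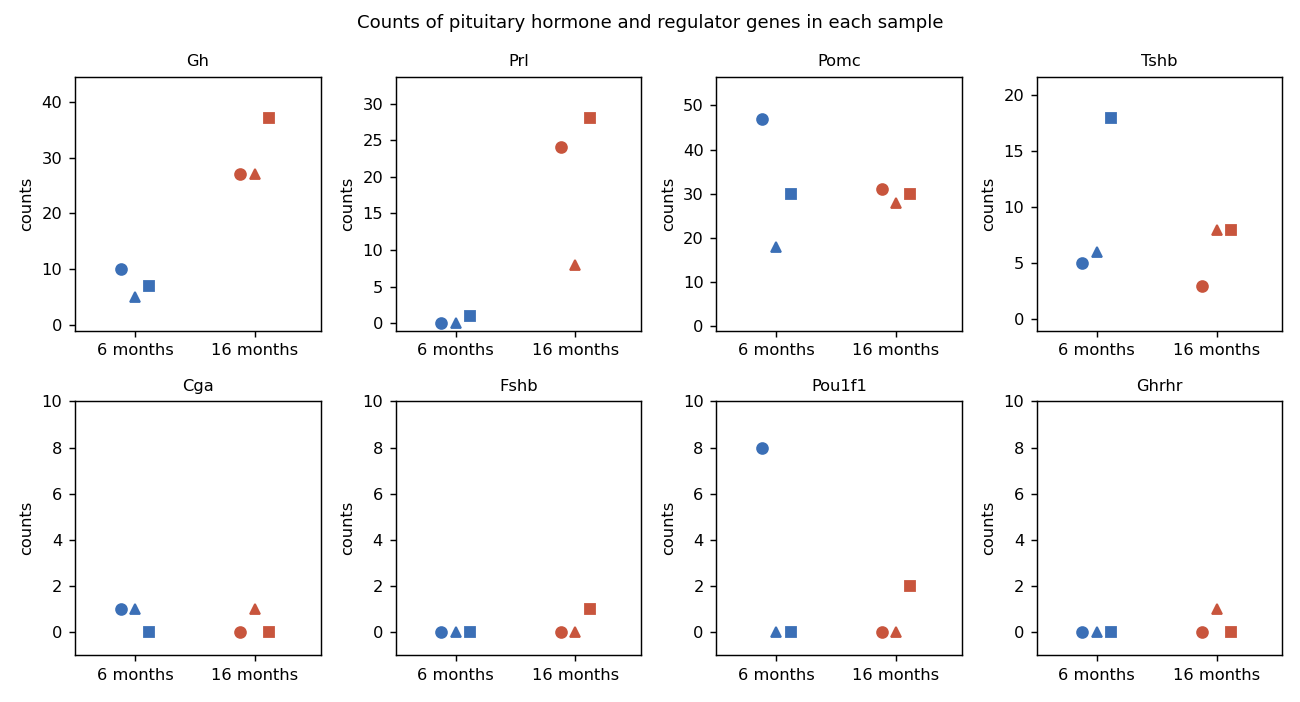
Raw counts per sample (vertical axis) at 6 months (blue) and 16 months (red) for Gh, Prl and other pituitary hormone and regulator genes, with circles, triangles and squares for replicates 1, 2 and 3. Gh lies at 5 to 10 counts at 6 months and 27 to 37 at 16 months and Prl at 0 to 1 and 8 to 28, while Pomc and Tshb overlap between the ages and Cga, Fshb and Ghrhr stay at 0 or 1.

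Regulators of the somatotroph were near the floor. Pou1f1 had 8 counts in replicate 1 at 6 months, 2 in replicate 3 at 16 months and 0 in the other 4 samples. The highest count of Pou1f1 was therefore in a sample with 10 counts of Gh and 0 of Prl. Ghrh, the hypothalamic releasing hormone, had 1 to 3 counts in every sample, and its receptor Ghrhr had at most 1. Markers of the hypothalamus summed to 6.36 to 7.57 CPM at 6 months and 7.38 to 8.04 CPM at 16 months. Of the 12 genes of that list 3 were tested, 2 with a positive and 1 with a negative log2 difference, in a range from -0.23 to 0.34. Among those tested, 1 was higher and 1 lower in all 16 month samples, beside 23.7% of all tested genes whose ages did not overlap. The vasopressin gene Avp, which was not among the 3 tested, had 6, 5 and 1 counts at 6 months and 13, 12 and 8 at 16 months. These counts did not overlap, but the share of 23.7% was taken over tested genes only. Npvf was at 0 throughout. The part of hypothalamic or pituitary tissue in the hormone counts was not tested.

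Ghr, the receptor for growth hormone (chr15:3317760-3583492, minus strand), had 641, 451 and 576 counts at 6 months and 367, 433 and 388 at 16 months. In CPM it stood at 13.7, 15.0 and 13.7 in the 6 month samples and at 11.1, 13.8 and 11.4 in the 16 month samples. Replicate 2 at 16 months lay within the range of the 6 month samples, so the ages overlapped. The mean was 14.2 ± 0.769 (SD, n = 3) at 6 months and 12.1 ± 1.51 (SD, n = 3) at 16 months. The log2 difference was -0.23 with a standard error of 0.092, and it was -0.33 without 16 month replicate 2 and -0.17 without 16 month replicate 1.

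Igf1, the ligand that growth hormone induces (chr10:87858265-87937042, plus strand), was at 18.2, 19.1 and 18.0 CPM at 6 months and at 14.7, 19.9 and 17.0 CPM at 16 months. The 16 month samples spanned the 6 month samples. The log2 difference of -0.10 had a standard error of 0.099 and a 95% interval from -0.32 to 0.12. It was -0.22 without 16 month replicate 2, 0.0009 without 16 month replicate 1 and -0.02 with GC and length offsets, and thus depended on these samples.

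Igf2, the second ligand, an imprinted gene expressed in the adult brain mainly by the meninges, choroid plexus and vessels (chr7:142650766-142666816, minus strand), had 2248, 1489 and 2006 counts at 6 months and 1162, 1079 and 1226 at 16 months. In CPM these were 48.0, 49.6 and 47.8 at 6 months and 35.1, 34.4 and 35.9 at 16 months. Every 16 month sample was below every 6 month sample, and the samples of an age lay close together. The mean was 48.5 ± 1.01 CPM at 6 months and 35.1 ± 0.739 CPM at 16 months (SD, n = 3 each), so that it fell by 27.5%, with a log2 difference of -0.46, a standard error of 0.052 and a 95% interval from -0.58 to -0.35. Igf2 kept a log2 difference between -0.48 and -0.45 whichever sample was left out. Gh and Igf2 were the 2 of 9 tested members whose ages did not overlap in CPM, beside 23.7% of all tested genes.

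Markers of meninges and fibroblasts were lower at 16 months together with Igf2. Their summed level was 97.6 to 99.4 CPM at 6 months and 75.0 to 78.3 CPM at 16 months, a ratio of means of 0.777. Of the 13 genes, 12 had a negative log2 difference, with a median of -0.42, beside 49.7% negative and a median of 0.0014 over all tested genes. All 16 month samples were below all 6 month samples for 8 of them, beside 23.7% of all tested genes whose ages did not overlap in either direction. edgeR called 3 of them lower and none higher, beside 0.888% of all tested genes called lower and 0.783% called higher. Those called were Ogn, a small leucine-rich proteoglycan of connective tissue (log2 difference -0.58, adjusted p = 0.0204 by edgeR's quasi-likelihood test), the transporter Slc47a1 (-0.56, adjusted p = 0.0377 by the same test), and Fmod, another matrix proteoglycan (-0.54, adjusted p = 0.0211 by the same test). The collagen gene Col3a1 was the exception, at 0.11.

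Divided by this summed level, Igf2 was 0.491, 0.499 and 0.486 in the 6 month samples and 0.459 in each 16 month sample. The ratio depended on the markers it was set against. Divided by Ogn alone, Igf2 was 3.84 to 4.21 at 6 months and 3.68 to 4.97 at 16 months, so that the ages overlapped. The marker sum fell by 22.3%. Markers of the choroid plexus went the other way, from 18.9 to 20.6 CPM at 6 months to 28.0 to 31.5 CPM at 16 months, with Ttr, its thyroid hormone carrier, the only 1 of 9 tested genes that was called (log2 difference 1.00, adjusted p = 0.000337 by edgeR's quasi-likelihood test). Ttr alone went from a mean of 8.95 to 17.8 CPM, and without it the other markers of the list summed to 10.4 to 11.0 CPM at 6 months and 11.3 to 12.8 CPM at 16 months, a ratio of means of 1.15 against 1.53 with it. Endothelial markers summed to 208 to 212 CPM and 202 to 214 CPM. The part of meningeal tissue in the Igf2 difference was not tested.

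**Figure D2:**
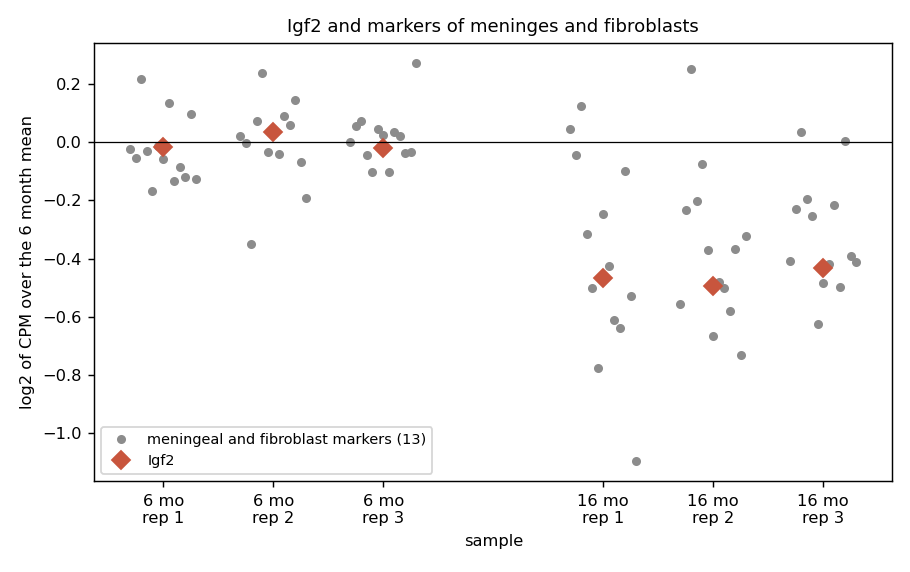
Log2 ratio of CPM to the 6 month mean (vertical axis) in each sample (horizontal axis) for Igf2 (red diamonds) and 13 markers of meninges and fibroblasts (grey dots). At 16 months Igf2 lies between -0.49 and -0.43 and within the spread of the markers, most of which are below 0.

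Igf1r, the receptor for both growth factors (chr7:67952827-68233668, plus strand), was at 34.4, 32.4 and 31.7 CPM at 6 months and 37.7, 29.6 and 33.4 CPM at 16 months. The 16 month samples spanned those of 6 months, with a log2 difference of 0.03 and a standard error of 0.084. Insr, the insulin receptor (chr8:3122061-3279617, minus strand), was at 75.9, 76.7 and 74.5 CPM at 6 months and 72.5, 78.7 and 77.0 CPM at 16 months. Its log2 difference was 0.0067 with a 95% interval from -0.11 to 0.12. Neither receptor kept the sign of its difference: with a sample left out, the log2 difference of Igf1r ran from -0.06 to 0.11 and that of Insr from -0.02 to 0.04.

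The adaptors that both receptors phosphorylate were also overlapping between the ages. Irs1 (chr1:82233101-82291416, minus strand) was at 14.3, 11.9 and 11.9 CPM at 6 months and 14.7, 12.7 and 13.6 CPM at 16 months, with a log2 difference of 0.10 and a standard error of 0.092. It was 0.20 without 6 month replicate 1 and 0.04 without 16 month replicate 1. Of its exon bases, 30.9% also belong to Gm9747 on the opposite strand. If HTSeq counted without regard to strand, reads on these bases were left uncounted, and the strand setting is not given. Irs2 (chr8:10984681-11008458, minus strand) was at 44.6, 39.1 and 39.8 CPM at 6 months and 58.2, 37.1 and 43.0 CPM at 16 months. A single sample, 16 month replicate 1, was far above the rest. The log2 difference of 0.16 had a standard error of 0.14, was -0.04 without that sample and 0.29 without 16 month replicate 2.

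Igfbp2, a secreted protein that binds both growth factors (chr1:72824503-72852474, plus strand), was at 27.3, 25.3 and 27.1 CPM at 6 months and 28.2, 21.3 and 23.6 CPM at 16 months. The ages overlapped through 16 month replicate 1. The log2 difference was -0.13 with a standard error of 0.094, and -0.04 without 16 month replicate 2. Without 16 month replicate 1, the sample through which the ages overlapped, it was -0.25, and Igfbp2 was called, beside 5.73% of all genes. Since the contrast was known when the members were chosen, nothing is read from this call.

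**Figure D3:**
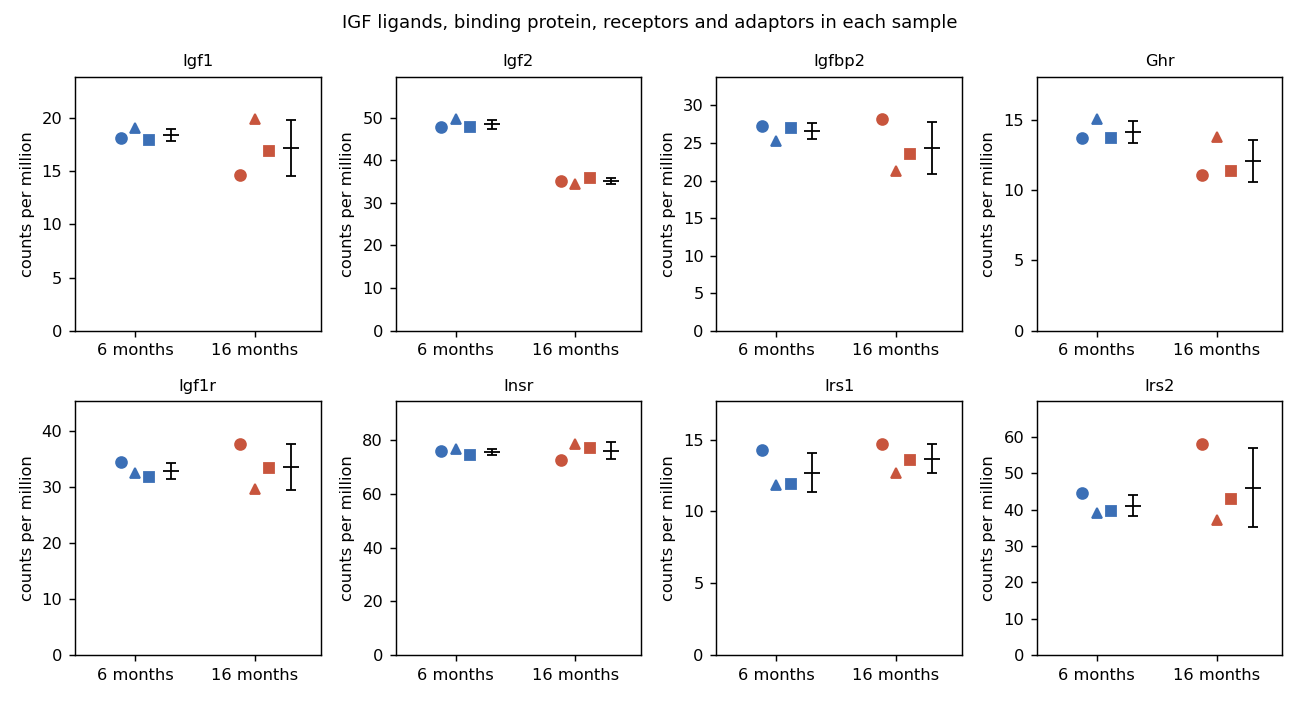
CPM in each sample (vertical axis, from 0) at 6 months (blue) and 16 months (red) for the IGF ligands, Igfbp2, the receptors and the adaptors, with circles, triangles and squares for replicates 1, 2 and 3 and black bars for the mean ± SD of 3 samples. Igf2 is the gene whose ages lie apart, at 47.8 to 49.6 and 34.4 to 35.9 CPM, and several others spread more widely at 16 months than at 6 months.

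Several members spread more at 16 months than at 6 months. Igf1, with 38.0% GC in its longest transcript, had an SD of log2 CPM of 0.044 at 6 months and 0.22 at 16 months. Igfbp2, with 62.1% GC, had 0.059 and 0.20. Igf1 was lower in 16 month replicate 1 than in replicate 2 by a log2 difference of -0.44, whereas Igfbp2 was higher by 0.40, and Irs2, with 56.6% GC, by 0.65. With offsets for GC content and transcript length the 16 month SD was 0.034 for Igf1, 0.025 for Igfbp2 and 0.22 for Irs2. Igf2, at 55.8% GC, went the other way, with an SD of 0.030 as deposited and 0.11 with the offsets. So did Gh, at 56.7% GC, with 0.206 and 0.237, and Igf1r hardly changed, with 0.1737 and 0.1665. The offsets left the log2 difference of Igf2 at -0.50, that of Gh at 2.36, that of Ghr at -0.17 and that of Igfbp2 at -0.14. Igfbp2 was then called beside Gh and Igf2, where 14.2% of all genes were called, and nothing is read from these calls of members.

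**Figure D4:**
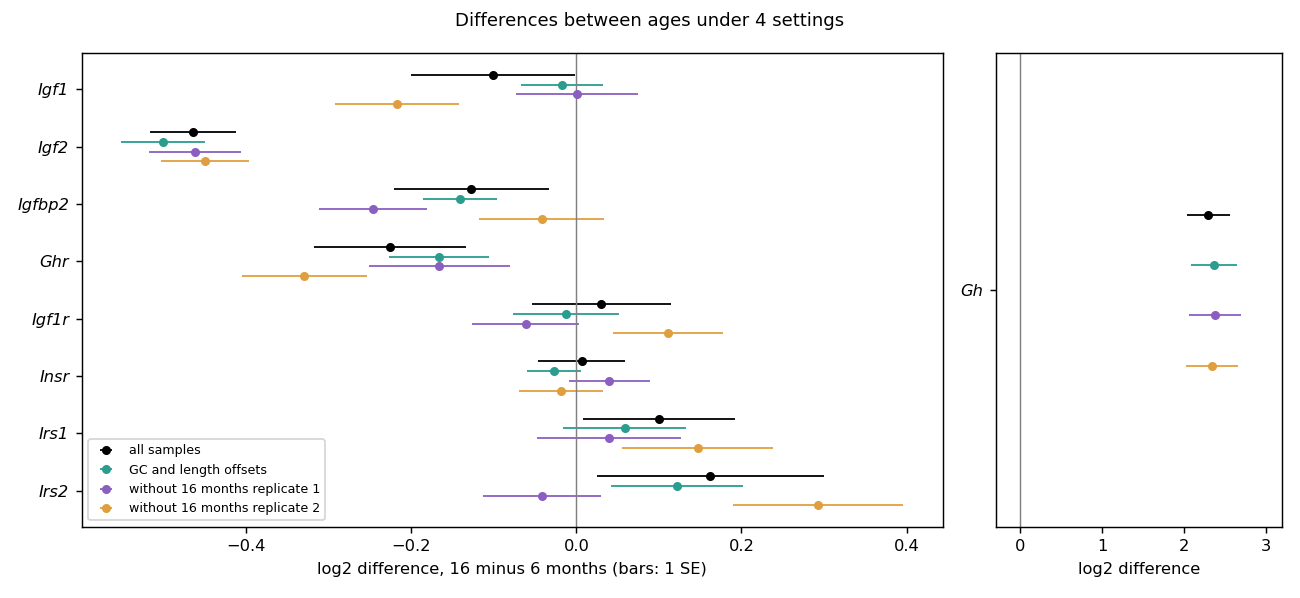
Log2 difference, 16 minus 6 months (horizontal axis), of the 9 tested members with bars of 1 standard error, for all samples (black), with GC and length offsets (green) and without 16 month replicate 1 (violet) or replicate 2 (orange), with Gh on an axis of its own at the right. Igf2 stays between -0.50 and -0.45 and Gh between 2.30 and 2.38, while Igf1, Igf1r, Insr and Irs2 change sign between settings.

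Per kilobase of annotated exon (RPKM), Igfbp2 was the most abundant member at 14.4 RPKM at 6 months and 13.2 RPKM at 16 months. At 6 months it was followed by Igf2 at 8.47 RPKM, Irs2 at 6.51 RPKM and Insr at 5.51 RPKM, and these 4 did not overlap. Igf1r at 1.96 RPKM and Igf1 at 1.86 RPKM overlapped, and so did Ghr at 1.56 RPKM and Irs1 at 1.39 RPKM. Gh at 0.212 RPKM and Prl at 0.0056 RPKM came last. At 16 months Irs2 at 7.29 RPKM stood above Igf2 at 6.14 RPKM, but these neighbours overlapped, with Insr below both at 5.53 RPKM. Igf1r at 2.00 RPKM, Igf1 at 1.73 RPKM, Irs1 at 1.49 RPKM, Ghr at 1.34 RPKM and Gh at 1.07 RPKM each overlapped the next in order, and Prl was last at 0.426 RPKM. These levels are for all annotated exons merged, which lowers the value of a gene expressed as a short form. Reads on the 30.9% of Irs1 exon bases shared with Gm9747 may be uncounted, so the level of Irs1 and its place in the order may be too low.

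Genes with the pattern most like that of a member were ranked by the Pearson correlation of log2 CPM over the 6 samples, which also share their ages, libraries and GC dependence. Closest to Gh were the ephrin receptor gene Epha6 (r = 0.999), Pdia4 (r = 0.999) and Mertk (r = 0.997), among 259 genes with r above 0.95. Igf1 was closest to Rnf141 (r = 0.999), Sft2d3 (r = 0.998) and Zfp455 (r = 0.998), among 604 such genes. For Igf2 the closest were 4930471C04Rik (r = 0.998), the VEGF receptor gene Kdr (r = 0.997) and Fermt1 (r = 0.997), among 198.

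The rest of the axis was followed in 79 listed genes, of which 68 could be tested. edgeR called 0 of the 68, beside 1.67% of all tested genes. At an unadjusted p under 0.05 there were 10 of 68 (14.7%), beside 17.4% of all genes, and DESeq2's Wald test called 0 and had 8 of 68 (10.3%) at an unadjusted p under 0.05, beside 8.36% of all genes. The log2 difference was positive for 48 of the 68, with a median of 0.07. Without 16 month replicate 1 it was positive for 40 of the 68, with a median of 0.03. Over all tested genes the median was 0.0014 and 49.7% had a negative log2 difference. The counts of positive differences by list given below stand beside that same share. The count of 0 changed with the handling of GC content and with single samples. With GC and length offsets 9 of 68 genes (13.2%) were called, 6 higher and 3 lower, beside 14.2% of all genes. Without 16 month replicate 2 there were 9, 8 of them higher, beside 12.7% of all genes, and without 16 month replicate 1 there were 2, beside 5.73% of all genes. In these 3 settings the share called was near or below that of all genes.

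In the hypothalamic and pituitary control of growth hormone, 8 of 12 genes were tested and 5 had a positive log2 difference. Sst, whose product somatostatin restrains growth hormone release and which cortical interneurons express, was at 137 ± 3.66 CPM at 6 months and 141 ± 9.25 CPM at 16 months (SD, n = 3 each). Its log2 difference was 0.04 (adjusted p = 0.788 by edgeR's quasi-likelihood test) and 0.12 with GC and length offsets, when it was called (adjusted p = 0.0345). The receptor gene Sstr4 was at 27.3 ± 0.765 and 30.7 ± 2.32 CPM (SD, n = 3 each), a log2 difference of 0.17 with an adjusted p of 0.229 by edgeR's quasi-likelihood test. Sstr4 was called with the offsets (adjusted p = 0.0227 by edgeR) and without 16 month replicate 2 (adjusted p = 0.0309). It was higher in all 16 month samples, and Sst overlapped between the ages.

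Growth hormone and prolactin signal through JAK2 and STAT5, and the SOCS proteins and phosphatases limit that signal. All 12 genes of this list were tested, and 8 had a positive log2 difference. Ptpn11, which encodes the phosphatase SHP2, was at 246 ± 1.08 CPM at 6 months and 263 ± 3.80 CPM at 16 months (SD, n = 3 each), with a log2 difference of 0.10 and an adjusted p of 0.318 by edgeR's quasi-likelihood test. Jak2 was at 90.8 ± 2.06 and 87.4 ± 5.48 CPM (SD, n = 3 each). The samples of the ages were apart for Ptpn11 and overlapped for Jak2.

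Among the other ligands and receptors of the insulin family, Ins1 and Ins2 were at or under the floor in all samples. Igf2r, which clears IGF2 and sorts lysosomal enzymes, was at 41.5 ± 1.02 and 41.4 ± 1.60 CPM (SD, n = 3 each), with a log2 difference of -0.0046 and a 95% interval from -0.13 to 0.12. Insrr, an orphan relative of the insulin receptor, was at 0.269 ± 0.123 and 0.323 ± 0.0588 CPM (SD, n = 3 each). For binding proteins and the proteins that process them, 9 of 11 genes were tested and 7 had a positive log2 difference, with Igfals at or under the floor. Igfbp5 was at 192 ± 5.76 and 181 ± 5.54 CPM (SD, n = 3 each), a log2 difference of -0.08, and Igfbp4 had a log2 difference of 0.0074. Igfbp5 was lower in all 16 month samples, with an adjusted p of 0.443 by edgeR's quasi-likelihood test. With the offsets it was called, at a log2 difference of -0.11 and an adjusted p of 0.0235 by the same test.

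Downstream of the receptors, 7 of 8 adaptor genes, all 23 genes of the PI3K, AKT and mTOR pathway and all 4 FOXO factors were tested. Grb2, an adaptor to the Ras pathway, was at 107 ± 3.52 and 116 ± 1.03 CPM (SD, n = 3 each), a log2 difference of 0.12 with an adjusted p of 0.254 by edgeR's quasi-likelihood test, and Grb10, an inhibitor of both receptors, had a log2 difference of 0.01. In the PI3K list, where log2 differences ran from -0.11 to 0.20, the kinase gene Gsk3b had a log2 difference of 0.07. Foxo3 was at 90.8 ± 1.95 and 99.2 ± 7.53 CPM (SD, n = 3 each). Foxo1, which AKT keeps out of the nucleus, was at 29.0 ± 1.70 and 34.4 ± 1.27 CPM (SD, n = 3 each), a log2 difference of 0.24 with an adjusted p of 0.0913 by edgeR's quasi-likelihood test. Foxo1 was higher in all 16 month samples. It was called with the offsets and without 16 month replicate 1 or replicate 2, where 5.73% to 14.2% of all genes were called. It was not called by DESeq2's Wald test (adjusted p = 0.0748) or with any other sample left out. These observations were made after its values were seen.

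At the Igf2 locus, Igf2os, which runs opposite to Igf2 and shares 98 exon bases with it, had 19, 8 and 14 counts at 6 months and 8, 8 and 12 at 16 months. H19, the imprinted noncoding neighbour of Igf2, had 12, 1 and 3 counts and then 11, 3 and 5, too few to pass the filter. Igf2bp3 and Igf2bp2, which encode proteins that bind IGF2 mRNA, had log2 differences of 0.08 and 0.17. Their adjusted p values by edgeR's quasi-likelihood test were 0.747 and 0.689.

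**Figure D5:**
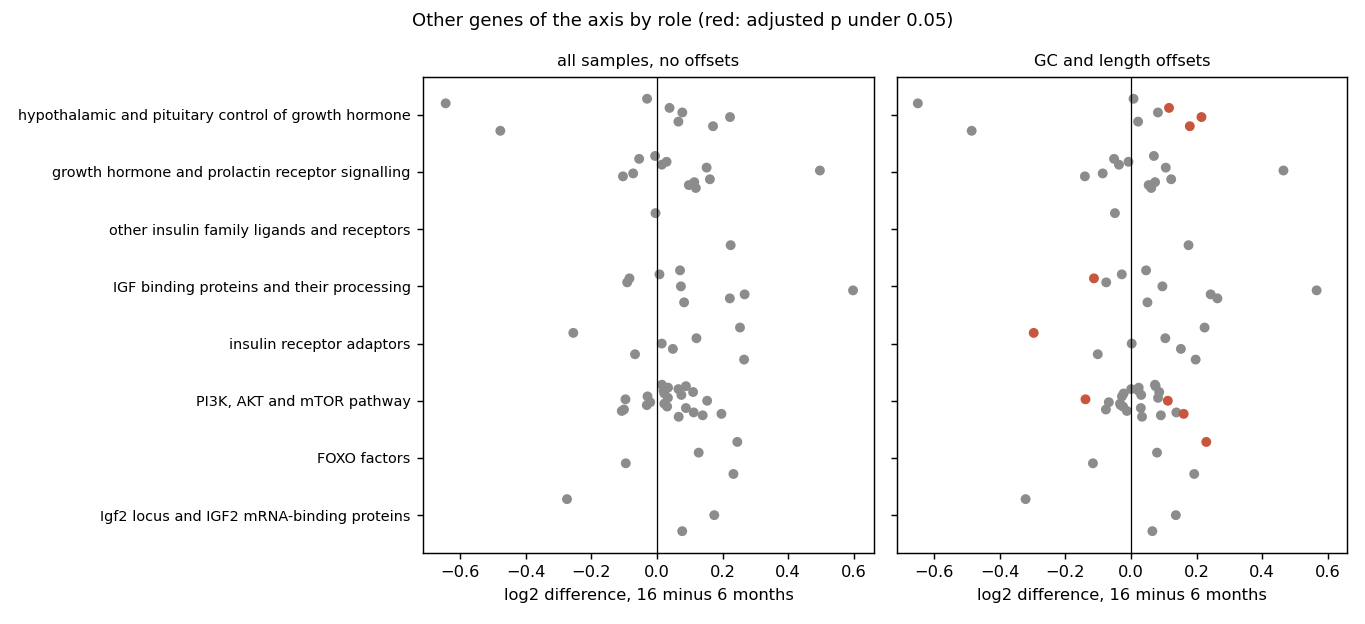
Log2 difference, 16 minus 6 months (horizontal axis), of the 68 tested genes of the axis that are no members, 1 dot a gene in rows by role, for all samples (left) and with GC and length offsets (right), with red for an adjusted p under 0.05. No dot is red at the left and 9 are red at the right, 6 above 0 and 3 below.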

How the data were processed

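Polyadenylated RNA of whole cortical hemispheres was sequenced as paired reads. The authors aligned trimmed reads to mm10 with STAR and counted reads per Ensembl gene. The paper names HTSeq for this step and the processing notes of the labels name featureCounts 1.5.0-p1 and STAR 2.3.0e, while the deposited tables end with HTSeq's summary lines. The deposited values are raw, not normalized read counts. The Ensembl release and strand setting are not given in the sources used here. HTSeq leaves reads on more than 1 gene uncounted.

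Of 38355 genes, 36602 were matched by identifier to GENCODE M21 on GRCm38 for names, coordinates, exon lengths and GC content. Counts were fitted with edgeR 4.0.16 in R 4.3.3 (TMM factors, filterByExpr on age, quasi-likelihood test on age alone, two-sided, Benjamini-Hochberg adjustment at 0.05). CPM use TMM library sizes. RPKM divide CPM by merged exon length. Total counts of 29797253 to 46519280 set the floor, and floors and counts cover counting error only, since reads carried no molecular identifiers. No samples of an age held identical tables. The alternatives were DESeq2 1.42.0 size factors or Wald test, upper quartile scaling, other filters, a replicate block, offsets for GC content and exon length over 20 bins of genes, thinned counts, another prior count and each sample left out. The fits were tested on simulated data. Near copies were searched with blastn 2.17.0 at 97% identity over 100 bases, and none was found for Gh or Prl.

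The members and gene lists were chosen with earlier results of these data known. Named genes were all members, called pathway genes, up to 2 of the most abundant genes of each pathway list without a call, list genes at the floor, the 3 genes most like Gh, Igf1 and Igf2, and up to 4 markers of a cell type beside a member they move with. Pou1f1, Igf2os, H19 and 6 pituitary markers beyond the rule (Six6, Cga, Tshb, Pomc, Chga and Scg2) were added after their values were seen. Some genes that this rule names are not reported here.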

Additional observations from a re-analysis of the deposited data

How the results depend on the processing

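Over all alternatives the log2 difference of Gh ranged from 2.03 (prior count of 2) to 2.57 (counts thinned to the smallest total) and that of Igf2 from -0.50 (GC and length offsets, with or without the replicate block) to -0.45. No called difference changed sign. The number of genes called was 286, and it was 648 with no filter, 470 with DESeq2's Wald test, 783 with the replicate block, 2432 with GC and length offsets, 3285 with offsets and block together, and 48 to 2211 with a sample left out. The fewest, 48, came without 6 month replicate 3, and 55 to 58 without 6 month replicates 1 or 2 or 16 month replicate 3. The number of members called was 2, beside 1.67% of all genes. It was 1, Igf2, when at least 10 counts were required in every sample, again beside 1.67%. With a sample left out it was 2 to 4. There were 3 without 16 month replicate 1, beside 5.73% of all genes. Without 16 month replicate 2, Ghr and Prl were added, beside 12.7% of all genes. Prl was also called with no filter, beside 2.35% of all genes, and by DESeq2's Wald test, beside 2.67%. Since the contrast was known when the members were chosen, nothing is read from these calls of members. Of the 68 tested pathway genes, 0 were called in the main fit. With the offsets there were 9 (13.2%, beside 14.2% of all genes). With offsets and block together there were 13 (19.1%, beside 19.2%), and with a sample left out 0 to 9. The causes were not tested.

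Replicate numbers in the labels are shared by the ages. Deviations of same-numbered samples correlated across genes with r = 0.18, 0.0958 and 0.0351, so the numbers were not taken as pairs, although 5 of 6 samples correlated best with their own number. With the replicate block 2 members and 0 pathway genes were called, beside 4.57% of all genes. Depth limits Prl, at or under 3 counts at 6 months, to a lower bound, and differences between levels at or under that floor were not detectable.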
